A study of Mus musculus with 10 samples.

Results

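T and B lymphocyte genes were examined in bulk RNA-seq of inguinal white adipose tissue, the subcutaneous fat of the groin. The set held 29 genes named by symbol, of 40501 gene identifiers in the count table, and all 29 were found there once. By role, 18 mark T cells, 9 mark B cells, and Ltb and Cd37 are made by both lineages. Membership went by symbol alone, with no cut on measured values, but the set was chosen with earlier results of these data known. Tissue came from male C57/BL6J mice on chow: 5 Cre-negative samples (Control, replicates 2, 3, 5, 7 and 8) and 5 Cre-positive samples, whose fat carries the PexRAP deletion (PexRAP-AKO, replicates 1, 2, 3, 5 and 6). The labels give the diet as lasting 8 weeks before harvest and also give an age of 8 weeks. The sources used here name neither the Cre driver nor the alleles that Control animals carry. Values listed by library below follow the order of those replicate numbers.

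T cells recognise peptide through the T cell receptor, whose signal passes through the CD3 chains to the kinases LCK and ZAP70. B cells recognise antigen through surface immunoglobulin, which signals through CD79A and CD79B. Naive cells of both lineages recirculate through blood and lymph nodes, which they enter by CCR7 and L-selectin, while fat holds mainly resident memory, regulatory and innate-like lymphocytes. The inguinal depot encloses a lymph node, so the tissue taken from it can carry lymphocyte RNA from outside the fat itself. In bulk tissue, fewer cells of a type and less RNA per cell cannot be told apart.

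Libraries held 11274865 to 19881168 counts. Dhrs7b, the gene that encodes PexRAP, stood at 95.8, 61.2, 85.9, 86 and 83.2 CPM in Control libraries and at 22.8, 19.1, 18, 21.8 and 17.9 CPM in PexRAP-AKO, and each PexRAP-AKO library lay under each Control library (log2 fold change -2.05, SE 0.12, edgeR adjusted p = 1.54e-05). White adipocyte genes summed to 29988 to 41031 CPM in the libraries other than PexRAP-AKO replicate 6 and to 34082 CPM in that one, so the labelled tissue showed its markers throughout. CPM here is the read count scaled to library size after TMM, a correction for library composition.

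The highest levels of the lymphocyte genes lay in single libraries, 1 in each group. PexRAP-AKO replicate 6 held the highest level of all 29 genes, against 10.9% of the 14913 genes tested that peaked in it. Control replicate 8 held high levels of the B cell genes without high levels of the T cell genes. Summed over the 18 T cell genes, the level was 40.2, 30.6, 32, 21.1 and 29.2 CPM in Control libraries and 35.5, 28, 38, 46.7 and 242 CPM in PexRAP-AKO. The 9 B cell genes summed to 10.8, 5.89, 8.99, 7.97 and 62.3 CPM in Control libraries and 11.9, 7.93, 15.9, 23.2 and 125 CPM in PexRAP-AKO. Both libraries therefore stand apart, and the results below are given with and without them.

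**Figure D1:**
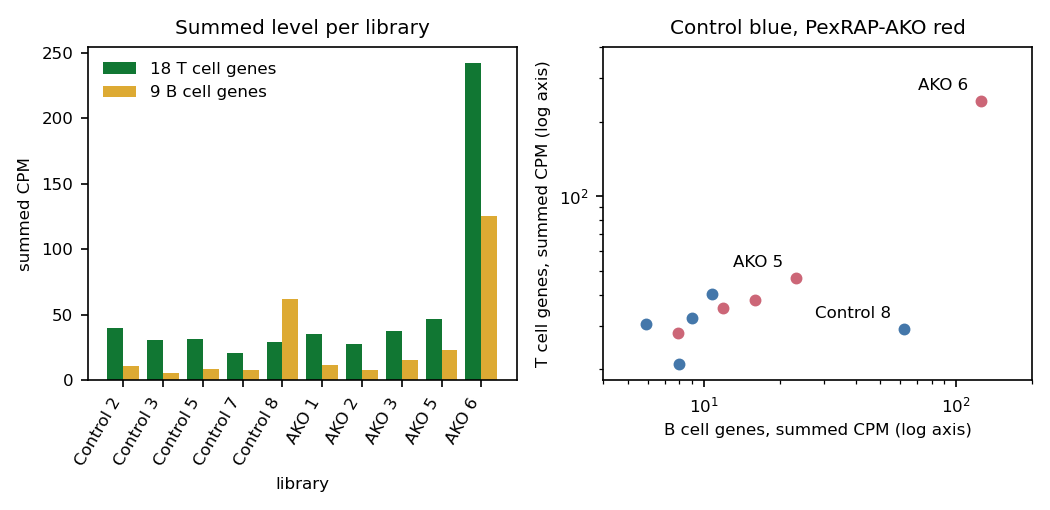
Left, summed CPM (linear axis) of the 18 T cell and the 9 B cell genes in each of the 10 libraries. Right, the same sums plotted against each other on log axes, 1 point per library, Control in blue and PexRAP-AKO in red. PexRAP-AKO replicate 6 lies highest in both sums, and Control replicate 8 reaches 62.3 CPM in the B cell sum at 29.2 CPM in the T cell sum.

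The promoters of 4 antigen receptor chains are shown: the neighbouring Cd3d, Cd3g and Cd3e of the T cell receptor complex, and Cd79a of the B cell receptor complex. Their shared peak in PexRAP-AKO replicate 6 does not set them apart, since all 29 genes peaked there. Sequences are from RefSeq (GRCm38.p6) and run from 250 bases before to 50 after the gene's start, 5′ to 3′ along the gene: chr9:44981536-44981835 on the plus strand for Cd3d, chr9:44980382-44980681 on the minus strand for Cd3g, chr9:45009562-45009861 on the minus strand for Cd3e and chr7:24897247-24897546 on the plus strand for Cd79a. Capitals mark matches on either strand to any of 5 short motifs: TGTGGT (RUNX), AGGAAG (ETS), TCAAAG (TCF/LEF), CCCNNGGG (EBF1) and CAGGTG (the E protein box). Overlapping matches would merge into 1 stretch of capitals.
Cd3d: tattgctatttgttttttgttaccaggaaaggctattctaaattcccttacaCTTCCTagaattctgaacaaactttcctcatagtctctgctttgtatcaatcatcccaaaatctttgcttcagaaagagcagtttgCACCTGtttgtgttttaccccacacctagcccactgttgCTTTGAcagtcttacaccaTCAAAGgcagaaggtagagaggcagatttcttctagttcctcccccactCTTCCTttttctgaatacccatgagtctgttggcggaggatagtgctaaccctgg
Cd3g: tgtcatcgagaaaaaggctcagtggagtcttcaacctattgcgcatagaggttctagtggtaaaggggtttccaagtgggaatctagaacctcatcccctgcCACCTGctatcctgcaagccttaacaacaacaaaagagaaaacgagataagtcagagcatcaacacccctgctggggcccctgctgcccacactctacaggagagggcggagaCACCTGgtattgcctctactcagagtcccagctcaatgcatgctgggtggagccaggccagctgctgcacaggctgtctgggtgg
Cd3e: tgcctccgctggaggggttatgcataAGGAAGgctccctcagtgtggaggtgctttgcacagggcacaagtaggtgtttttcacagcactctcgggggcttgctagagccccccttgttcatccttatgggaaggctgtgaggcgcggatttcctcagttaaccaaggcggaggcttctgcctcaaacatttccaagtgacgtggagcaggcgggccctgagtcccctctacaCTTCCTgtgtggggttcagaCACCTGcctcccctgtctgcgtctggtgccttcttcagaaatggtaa
Cd79a: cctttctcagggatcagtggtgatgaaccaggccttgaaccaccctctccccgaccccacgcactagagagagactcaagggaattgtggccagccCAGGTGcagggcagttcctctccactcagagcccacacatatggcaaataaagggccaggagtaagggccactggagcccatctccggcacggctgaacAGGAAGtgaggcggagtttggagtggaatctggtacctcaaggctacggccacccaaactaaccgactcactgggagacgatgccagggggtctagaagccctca
Cd3d, Cd3g, Cd3e and Cd79a each held CAGGTG or its reverse complement. Of the 29 genes, 19 had promoters in the table, 26 windows in all. CAGGTG was in 16 of the 26, against 20.2% of the 32851 promoter windows, and AGGAAG in 13, against 35.4%. TCAAAG was in 6 (16.0% of all windows), CCCNNGGG in 4 (13.7%) and TGTGGT in 3 (16.8%). These are matches of letters, and whether a factor binds there was not measured.

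In the test of PexRAP-AKO against Control, no lymphocyte gene passed. Of the 29 genes, 25 passed the filter on low counts and were tested with edgeR's quasi-likelihood test, and 0 of the 25 were called at a Benjamini-Hochberg adjusted p under 0.05, against 0.101% of all genes tested. Their adjusted p-values ran from 0.228 to 0.759. At an unadjusted p under 0.05 there were 8 of 25, all T cell genes, against 15.5% of all genes. DESeq2 gave an adjusted p to 1 of the 25 and called 0 (4.27% of all genes with one were called), with 8 at an unadjusted p under 0.05, while limma voom called 0 (0.127% of all genes) with 1 at an unadjusted p under 0.05. In no lymphocyte gene were the groups free of overlap, against 3.41% of all genes tested.

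All 25 fold changes were positive nonetheless, against 49.8% of all genes, with a median of 1.33 on the log2 scale where the median over all genes was -0.00065. Their size depended on PexRAP-AKO replicate 6. Without it the median of the 25 was 0.20, with 18 positive (15 of 16 T cell, 2 of 7 B cell and 1 of 2 shared genes) against 49.0% of all genes, 0 called against 0.101%, and 1 at an unadjusted p under 0.05 against 16.1%. Without both that library and Control replicate 8 the median was 0.34, with 23 positive against 49.8%, 0 called against 0.0335%, and 3 at an unadjusted p under 0.05 against 12.3%. Genes of 1 cell type share their libraries, so the 25 directions are not separate observations.

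**Figure D2:**
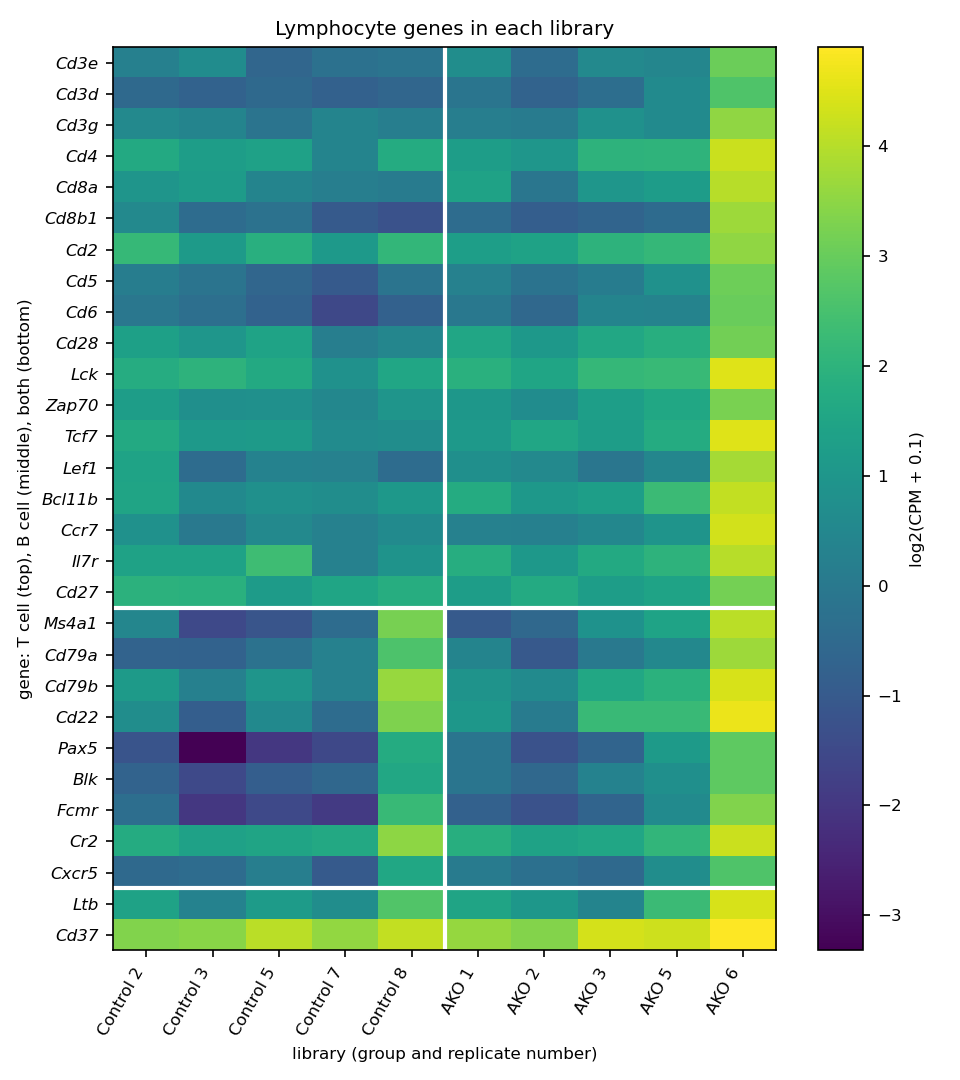
Level of each of the 29 genes (rows: T cell genes above, B cell genes in the middle, Ltb and Cd37 below) in each library (columns), as log2(CPM + 0.1) on the colour scale. The column of PexRAP-AKO replicate 6 is the brightest in every row, and Control replicate 8 is bright in the B cell rows.

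Among the CD3 chains, Cd3e stood at 1.11, 1.51, 0.552, 0.732 and 0.803 CPM in Control libraries and at 1.54, 0.65, 1.37, 1.26 and 8.27 CPM in PexRAP-AKO. The 9 libraries other than PexRAP-AKO replicate 6 overlapped between the groups, and that library alone lay 5.37 times over the next. Its means were 0.941 ± 0.376 CPM over the Control and 2.62 ± 3.18 CPM over the PexRAP-AKO libraries (SD, n = 5 each), a log2 fold change of 1.47 (SE 0.68, edgeR adjusted p = 0.331), which was 0.32 without that library. Cd3g stood at 1.36, 1.21, 0.804, 1.22 and 1.04 CPM in Control libraries and at 1.05, 0.975, 1.67, 1.44 and 11.4 CPM in PexRAP-AKO, with the same single high library. Its log2 fold change was 1.58 (SE 0.72, edgeR adjusted p = 0.329), and 0.20 without that library. Cd3d, at 0.595, 0.503, 0.603, 0.488 and 0.562 CPM in Control libraries and at 0.81, 0.52, 0.685, 1.44 and 6.15 CPM in PexRAP-AKO, was too low for the filter. Outside PexRAP-AKO replicate 6, Cd3d had 6 to 16 reads in a library.

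The coreceptors split T cells into helper (Cd4) and cytotoxic (Cd8a and Cd8b1) classes. Cd4 stood at 3.06, 2.27, 2.51, 1.22 and 3.21 CPM in Control libraries and at 2.27, 1.89, 3.88, 3.95 and 19 CPM in PexRAP-AKO. Cd8a stood at 1.87, 2.16, 1.21, 1.06 and 0.964 CPM in Control libraries and at 2.59, 0.845, 1.9, 2.25 and 16.2 CPM in PexRAP-AKO. Both peaked in PexRAP-AKO replicate 6, and the other 9 libraries overlapped. Cd8b1, the beta chain found on conventional cytotoxic T cells, stood at 1.36, 0.655, 0.753, 0.407 and 0.321 CPM in Control libraries and at 0.648, 0.455, 0.533, 0.629 and 13 CPM in PexRAP-AKO, so PexRAP-AKO replicate 6 held 9.55 times the next library. The ratio of Cd4 to Cd8a was 1.17 in that library, inside the range of 0.875 to 3.33 over all 10. The log2 fold changes of Cd4 and Cd8a were 1.34 (SE 0.63, edgeR adjusted p = 0.345) and 1.70 (SE 0.75, edgeR adjusted p = 0.315). They were 0.28 and 0.35 without PexRAP-AKO replicate 6.

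Adhesion and signalling genes of T cells also peaked in PexRAP-AKO replicate 6. Lck, the kinase that starts T cell receptor signalling, stood at 3.32, 3.88, 3.11, 1.71 and 2.81 CPM in Control libraries and at 3.64, 2.73, 4.34, 4.58 and 22.5 CPM in PexRAP-AKO. Zap70, the kinase recruited to the phosphorylated CD3 chains, stood at 2.3, 1.61, 1.66, 1.3 and 1.85 CPM in Control libraries and at 1.94, 1.5, 2.36, 2.88 and 9.4 CPM in PexRAP-AKO. Their log2 fold changes were 1.34 (SE 0.58, edgeR adjusted p = 0.31) and 1.06 (SE 0.48, edgeR adjusted p = 0.32), and 0.34 and 0.31 without PexRAP-AKO replicate 6. Cd5 and Cd6, which restrain receptor signalling, lay at 0.407 to 1.71 and 0.244 to 1.22 CPM outside PexRAP-AKO replicate 6, which held 8.41 and 7.98 CPM. Their log2 fold changes were 1.87 (SE 0.70, edgeR adjusted p = 0.246) and 2.08 (SE 0.76, edgeR adjusted p = 0.239). They were 0.66 and 0.75 without that library, where neither passed (edgeR adjusted p = 0.335 and 0.318). Cd28, the costimulatory receptor, stood at 2.47, 1.91, 2.66, 1.06 and 1.29 CPM in Control libraries and at 2.83, 2.02, 2.97, 3.5 and 8.9 CPM in PexRAP-AKO. Its log2 fold change was 1.09 (SE 0.41, edgeR adjusted p = 0.246), and 0.56 without PexRAP-AKO replicate 6. Cd2, an adhesion receptor also made by natural killer cells, reached 11.6 CPM in that library against 2.03 to 4.42 CPM in the others, with a log2 fold change of 0.61 (SE 0.44, edgeR adjusted p = 0.55) that was 0.0161 without it.

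Genes of naive and recirculating T cells peaked there too. Ccr7, the chemokine receptor that guides lymphocytes into lymph nodes, stood at 1.7, 0.906, 1.36, 1.14 and 1.45 CPM in Control libraries and at 1.13, 1.11, 1.29, 1.8 and 20.1 CPM in PexRAP-AKO. PexRAP-AKO replicate 6 held 11.2 times the next library, the widest such gap of the 29 genes, and the other 9 libraries lay within 0.906 to 1.8 CPM. The log2 fold change of Ccr7 was 1.98 (SE 0.90, edgeR adjusted p = 0.329), and 0.0302 without that library. Tcf7, a transcription factor of naive and memory T cells, stood at 3.06, 2.06, 2.16, 1.46 and 1.53 CPM in Control libraries and at 2.1, 2.8, 2.28, 3.24 and 22.8 CPM in PexRAP-AKO. Lef1, its relative, stood at 2.64, 0.655, 1.16, 1.14 and 0.643 CPM in Control libraries and at 1.62, 1.37, 0.837, 1.26 and 13.8 CPM in PexRAP-AKO. For Tcf7 and Lef1 the log2 fold changes were 1.70 (SE 0.72, edgeR adjusted p = 0.3) and 1.65 (SE 0.84, edgeR adjusted p = 0.387), and 0.34 and 0.0707 without PexRAP-AKO replicate 6. Lef1 was -0.0735 without both libraries.

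Il7r, the receptor for the survival factor interleukin 7, stood at 2.55, 2.57, 5.02, 1.14 and 1.77 CPM in Control libraries and at 3.4, 2.02, 3.12, 3.86 and 16.2 CPM in PexRAP-AKO, Control replicate 5 being second. Its log2 fold change was 1.10 (SE 0.60, edgeR adjusted p = 0.419), and 0.20 without PexRAP-AKO replicate 6. Bcl11b, a transcription factor that T cells need for their identity, stood at 2.72, 1.41, 1.66, 1.55 and 2.01 CPM in Control libraries and at 3.24, 2.02, 2.36, 4.76 and 17.7 CPM in PexRAP-AKO. It had the smallest adjusted p of the 25, with a log2 fold change of 1.70 (SE 0.61, edgeR adjusted p = 0.228), and was 0.73 without PexRAP-AKO replicate 6 (edgeR adjusted p = 0.247). Cd27, a costimulatory receptor of the tumour necrosis factor receptor family, was the 1 T cell gene of 16 whose sign turned without PexRAP-AKO replicate 6. It stood at 3.83, 3.63, 2.21, 2.77 and 3.37 CPM in Control libraries and at 2.27, 3.19, 2.28, 2.61 and 9.04 CPM in PexRAP-AKO, and its log2 fold change was 0.31 (SE 0.39, edgeR adjusted p = 0.75) and -0.28 without that library.

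The B cell genes followed a different order of libraries. Ms4a1, which encodes CD20, stood at 1.28, 0.252, 0.352, 0.651 and 9.24 CPM in Control libraries and at 0.405, 0.585, 1.75, 2.61 and 16.7 CPM in PexRAP-AKO. Cd79a stood at 0.51, 0.503, 0.753, 1.14 and 5.95 CPM in Control libraries and at 1.21, 0.39, 0.913, 1.35 and 13 CPM in PexRAP-AKO. Cd79b stood at 2.13, 1.11, 1.86, 1.14 and 12.3 CPM in Control libraries and at 1.78, 1.43, 2.97, 3.68 and 21.1 CPM in PexRAP-AKO. In all 9 B cell genes PexRAP-AKO replicate 6 was highest and Control replicate 8 second, so each group held 1 high library. The ratio between those 2 libraries was 1.69 to 2.54 over the 9 B cell genes (median 2.19) and 2.68 to 40.4 over the 18 T cell genes (median 10.4). Control replicate 8 lay over the 8 other libraries in 9 of 9 B cell genes and 0 of 18 T cell genes. The ratio of the T cell sum to the B cell sum was 0.468 in Control replicate 8 and 1.94 to 5.19 in the other 9.

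With a high library in each group, the fold changes of B cell genes carried wide errors. Ms4a1 had a log2 fold change of 0.98 (SE 1.21, edgeR adjusted p = 0.748), which was -0.77 without PexRAP-AKO replicate 6 and 1.16 without both high libraries. Cd79a went from 1.00 (SE 1.05, edgeR adjusted p = 0.695) to -0.84 and 0.40 in the same order. Cd79b went from 0.78 (SE 0.94, edgeR adjusted p = 0.74) to -0.57 and 0.65. The 3 genes were negative only in the fit that kept Control replicate 8 and left out PexRAP-AKO replicate 6, of these 3 fits. Over the 7 tested B cell genes the median was 0.98 with all libraries, -0.46 without PexRAP-AKO replicate 6 and 0.65 without both. Over the 16 tested T cell genes it was 1.52, 0.32 and 0.26.

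Cd22, an inhibitory coreceptor of B cells, stood at 1.53, 0.453, 1.41, 0.651 and 9.88 CPM in Control libraries and at 1.94, 0.975, 4.64, 4.67 and 25.1 CPM in PexRAP-AKO. Here PexRAP-AKO replicates 1, 3 and 5 also stood above every Control library but replicate 8. Its log2 fold change was 1.48 (SE 1.03, edgeR adjusted p = 0.532), 0.17 without PexRAP-AKO replicate 6 and 1.59 without both high libraries (edgeR adjusted p = 0.328). Blk, a B cell kinase of the Src family, stood at 0.51, 0.252, 0.452, 0.569 and 2.97 CPM in Control libraries and at 0.81, 0.585, 1.14, 1.62 and 7.13 CPM in PexRAP-AKO, with a log2 fold change of 1.33 (SE 0.85, edgeR adjusted p = 0.492), 0.19 without PexRAP-AKO replicate 6 and 1.23 without both (edgeR adjusted p = 0.291). Pax5, the transcription factor that holds B cell identity, stood at 0.34, 0.00, 0.151, 0.244 and 3.21 CPM in Control libraries and at 0.81, 0.325, 0.533, 2.16 and 7.13 CPM in PexRAP-AKO, its 0 in Control replicate 3 allowing up to 0.151 CPM at 3 counts. Fcmr, the receptor for immunoglobulin M, stood at 0.68, 0.151, 0.251, 0.163 and 4.58 CPM in Control libraries and at 0.486, 0.325, 0.533, 1.44 and 10.03 CPM in PexRAP-AKO. Both fell under the filter on low counts, and outside the 2 high libraries only PexRAP-AKO replicate 5 exceeded 1 CPM for either. As in Cd22, PexRAP-AKO replicates 1, 3 and 5 stood above every Control library but replicate 8 in Pax5. In Blk, PexRAP-AKO replicates 1, 2, 3 and 5 did so. In Fcmr, PexRAP-AKO replicates 1, 2 and 3 lay under Control replicate 2 (0.68 CPM). In Cxcr5 the same replicates lay under Control replicate 5 (1.05 CPM). The share of all genes with such an order was not counted. Control replicate 8 was set aside because of its levels of these same genes, so the order is a description only.

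Cr2, the complement receptor of mature B cells and follicular dendritic cells, stood at 3.23, 2.52, 2.71, 3.01 and 11.2 CPM in Control libraries and at 3.48, 2.6, 2.82, 4.13 and 19 CPM in PexRAP-AKO. Its 8 other libraries lay within 2.52 to 4.13 CPM, a narrower range than that of Ms4a1 (0.252 to 2.61 CPM) or Cd22 (0.453 to 4.67 CPM). Cxcr5, the receptor that draws cells into B cell follicles, stood at 0.595, 0.655, 1.05, 0.407 and 2.89 CPM in Control libraries and at 0.971, 0.715, 0.609, 1.53 and 6.08 CPM in PexRAP-AKO. Neither passed, with log2 fold changes of 0.52 (SE 0.67, edgeR adjusted p = 0.759) for Cr2 and 0.85 (SE 0.74, edgeR adjusted p = 0.621) for Cxcr5. Without PexRAP-AKO replicate 6 they were -0.46 and -0.23.

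Ltb, a cytokine of lymphocytes needed to build lymph nodes, stood at 2.55, 1.16, 2.21, 1.55 and 6.27 CPM in Control libraries and at 2.67, 1.95, 1.22, 4.76 and 20.9 CPM in PexRAP-AKO. Its order at the top was PexRAP-AKO replicate 6, Control replicate 8 and PexRAP-AKO replicate 5, as for the B cell genes. Its log2 fold change was 1.23 (SE 0.80, edgeR adjusted p = 0.498), and -0.0426 without PexRAP-AKO replicate 6. Cd37, a tetraspanin found on most leukocytes, stood at 10.1, 10.7, 16.4, 11.9 and 17.5 CPM in Control libraries and at 12.1, 10.4, 20.8, 19.2 and 29.9 CPM in PexRAP-AKO. PexRAP-AKO replicate 6 held only 1.44 times the next library, the narrowest gap of the 29 genes, and the log2 fold change was 0.47 (SE 0.28, edgeR adjusted p = 0.463), or 0.23 without that library. Per kilobase of exon, Cd37 was also the most abundant of the 29, with a median level of 4.06 CPM per kilobase over the 10 libraries. Cd2 (2.14) and Ltb (1.57 CPM per kilobase) were next, and Pax5 was lowest at 0.049.

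Cd3d, Cd8b1, Pax5 and Fcmr, removed by the filter, were not called in edgeR without it either, where 0 of the 29 genes passed (0.0936% of all 27784 genes did; adjusted p from 0.438) and 5 had an unadjusted p under 0.05, against 9.85% of all genes. By an exact two-sided permutation test of log2 CPM, unadjusted, p was 0.04 for Cd3d, 0.635 for Cd8b1, 0.183 for Pax5 and 0.444 for Fcmr, the smallest possible with 5 libraries against 5 being 0.00794. Depth limits these genes, since the whole set drew 522 to 1434 reads in the 9 other libraries and 5924 in PexRAP-AKO replicate 6.

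**Figure D3:**
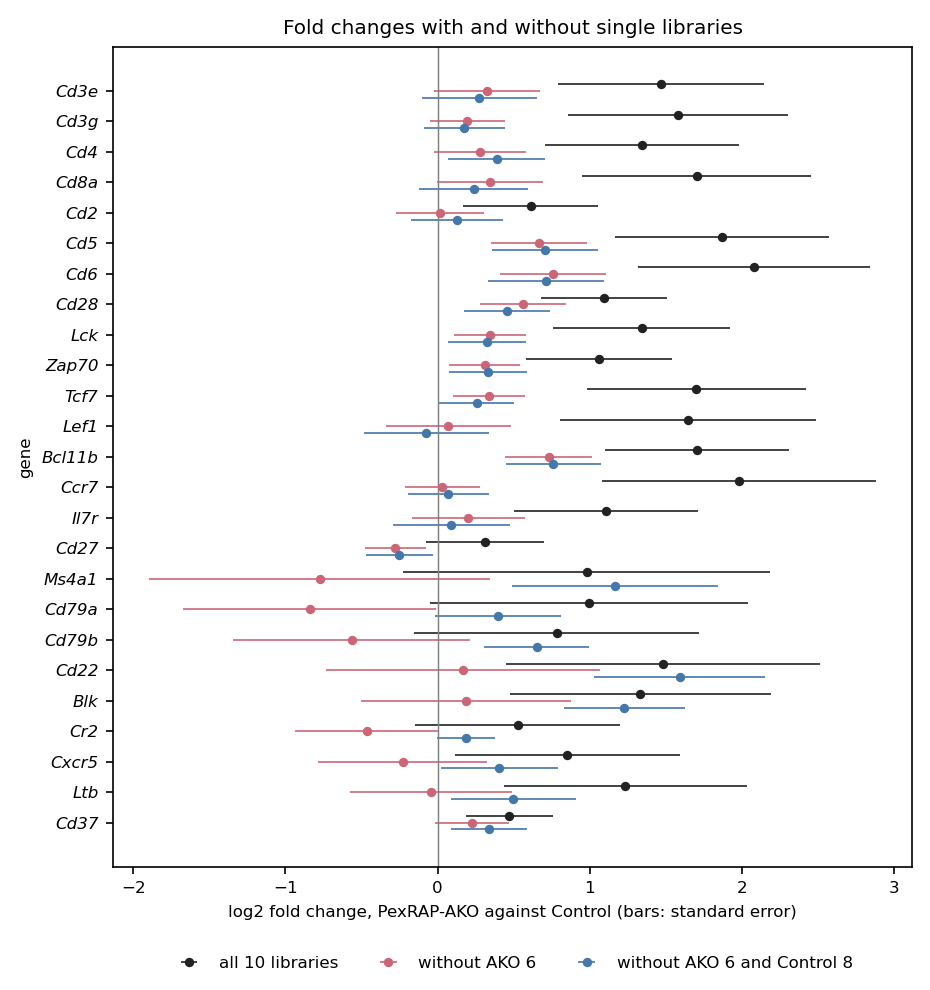
Log2 fold change of PexRAP-AKO against Control (horizontal axis) with its standard error for the 25 tested genes (rows), fitted with all 10 libraries (black), without PexRAP-AKO replicate 6 (red) and without that library and Control replicate 8 (blue). Black points lie between 0.31 and 2.08, and the red points of the B cell genes lie near or under 0.

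The gap of PexRAP-AKO replicate 6 was compared with that of all genes. This is a description, since the 29 genes were chosen with earlier results of these data known. It held at least 2 times the next highest library in 25 of the 29 genes, against 0.912% of all genes tested, and at least 4 times in 12, against 0.168% (21 and 10 of the 25 tested). The exceptions to the first were Ms4a1, Cd79b, Cr2 and Cd37, for 3 of which Control replicate 8 was the next library. The median ratio of a library to the median of the other 9 was 9.47 over the 29 genes in PexRAP-AKO replicate 6. In the remaining libraries it ran from 0.582 (Control replicate 7) to 1.56 (PexRAP-AKO replicate 5).

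Other lymphocyte genes, listed separately, were compared in the same way. Of 16 genes of T cell receptor chains and proximal signalling, 10 were tested with edgeR, 0 passed (0.101% of all genes did), 6 had an unadjusted p under 0.05 (15.5% of all genes) and 10 were positive (49.8% of all genes). Their median on the log2 scale was 1.31 (0.45 without PexRAP-AKO replicate 6). PexRAP-AKO replicate 6 was highest in 15 of the 16 (10.9% of all genes), the exception being Lcp2, an adaptor that myeloid cells also make (22 CPM, against 22.9 CPM in PexRAP-AKO replicate 3). Skap1, a T cell adaptor, stood at 12 CPM there and at 1.11 to 2.88 CPM elsewhere.

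Of 14 found genes of B cell receptor chains and signalling, 11 were tested with edgeR and 0 passed (0.101% of all genes did). At an unadjusted p under 0.05 there were 2, near the 15.5% of all genes, and 10 were positive (49.8% of all genes). Their median was 0.71 (0.0243 without PexRAP-AKO replicate 6). That library was highest in 9 of the 14, and in 7 of the 11 tested (10.9% of all genes). Blnk was instead highest in Control replicate 5 (9.64 CPM), with 9.11 CPM in PexRAP-AKO replicate 6. Bank1, a B cell scaffold protein, stood at 22.8 CPM in that library, 14 CPM in Control replicate 8 and no more than 8.36 CPM in the other 8. The immunoglobulin genes followed that order in part. Igkc, the kappa light chain, was highest in PexRAP-AKO replicates 3 (47.9 CPM) and 5 (34.1 CPM), above replicate 6 (24.3 CPM) and Control replicate 8 (12.2 CPM). Ighm, the heavy chain of immunoglobulin M, was highest in Control replicate 8 (221 CPM) and PexRAP-AKO replicate 6 (213 CPM), followed by PexRAP-AKO replicate 5 (195 CPM), and lowest in PexRAP-AKO replicate 3 (123 CPM). Iglc2, a lambda light chain, was highest in PexRAP-AKO replicates 6 (5.23 CPM) and 5 (4.22 CPM), with 2.89 CPM in Control replicate 8.

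Markers of other cell types were set beside these libraries. Of any of these lists edgeR called 0 genes, against 0.101% of all genes tested. At an unadjusted p under 0.05 there were 5 of 9 skeletal muscle genes (all 9 negative), 3 of 7 endothelial genes (all 7 negative), 2 of 7 brown adipocyte genes (all 7 positive), 1 of 8 white adipocyte genes, 1 of 7 plasma cell genes and 1 of 2 epithelial genes tested, against 15.5% of all genes. There were none among the naive, effector, regulatory T, gamma delta T and innate lymphoid, germinal centre, stroma, dendritic, macrophage, leukocyte or blood genes. Without PexRAP-AKO replicate 6 the share over all genes was 16.1%. The count was then 0 of 9 muscle, 4 of 7 endothelial and 2 of 7 brown adipocyte genes. It was 2 of 2 epithelial (2 negative), 2 of 5 regulatory T, 1 of 3 gamma delta T and innate lymphoid and 1 of 5 stroma genes. It was 1 of 8 naive, 1 of 7 dendritic, 1 of 7 plasma cell and 1 of 8 white adipocyte genes. There were none among the effector, germinal centre, macrophage, leukocyte or blood genes. Naive and recirculating lymphocyte genes summed highest in PexRAP-AKO replicate 6, at 398 CPM against 239 to 285 CPM elsewhere. Endothelium and fat also make the most abundant genes of that list, S1pr1, Foxp1 and Klf2. Effector, cytotoxic and natural killer genes summed highest in PexRAP-AKO replicate 3 (53.2 CPM, against 42.1 CPM in replicate 6), and only 1 of the 13, the chemokine Ccl5, peaked in replicate 6. Macrophage and monocyte genes summed lowest in PexRAP-AKO replicate 6 (867 CPM, against 928 to 2530 CPM), with 10 of 12 at their lowest there. Genes of all leukocytes summed highest in it (783 CPM, against 297 to 694 CPM). Of these 12 genes, 7 peaked there, against 10.9% of all genes tested. Ptprc, which encodes CD45, was at 225 CPM in PexRAP-AKO replicate 6 and at 58.2 to 160.2 CPM elsewhere. Laptm5, the next most abundant, was at 89.6 CPM there and highest in PexRAP-AKO replicate 3 (127 CPM).

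Genes of lymph node stroma and high endothelial venules, the vessels by which lymphocytes enter a node, peaked in PexRAP-AKO replicate 6 in 8 of the 11 detected. Of the 5 that passed the filter on low counts, 2 peaked there, against 10.9% of all genes tested. The sum of the list (453 CPM, within the 313 to 519.7 CPM of the others) is carried by Mfge8 and Ltbr, which fat also makes. Glycam1, a ligand for L-selectin on these vessels and also a milk protein of mammary epithelium, was at 9.96 CPM (141 reads) there and at 0.00 to 0.884 CPM elsewhere. Chst4, an enzyme that sulphates those ligands, had 17 reads there and at most 1 elsewhere, and Madcam1 had 10 and at most 6. Cxcl13, the chemokine of B cell follicles, was instead highest in PexRAP-AKO replicate 3 (16.3 CPM) and Control replicate 8 (14.9 CPM), with 8.62 CPM in PexRAP-AKO replicate 6. Ccl21a had no read in any library, which allows up to 0.27 CPM at 3 counts, but its near-identical copies can take or lose reads. Ccl19 had 4 reads in PexRAP-AKO replicate 6 and at most 3 elsewhere. Lymph node tissue in a library and lymphocytes within its fat cannot be told apart from these markers.

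Epithelial genes of mammary gland and skin were also highest in that library. Krt18, a keratin of glandular epithelium, was at 16.8 CPM in PexRAP-AKO replicate 6 and at 0.00 to 2.52 CPM elsewhere, Cdh1 at 10.5 and 0.324 to 1.38 CPM, and Epcam at 8.48 and 0.00 to 2.11 CPM, while Trp63 was at 8.9 and 6.96 to 13.6 CPM. Of the 8 listed, 6 peaked there, and of the 2 tested 1 did, against 10.9% of all genes tested. Control replicate 7 was second for Krt18, Cdh1, Epcam, Krt8 (1.55 CPM) and Krt14 (0.732 CPM), while its sum of the 29 lymphocyte genes was the lowest of the 10 libraries (42.5 CPM). Erythrocyte and platelet genes did not, at 54.7 CPM against 40.9 to 112 CPM. Control replicate 8 held the highest skeletal muscle sum (1202 CPM, against 9.69 to 359 CPM in the 8 libraries without PexRAP-AKO replicate 6, and 111 CPM in that one). The part of these tissues in the lymphocyte levels was not tested.

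The summed germinal centre and plasma cell genes were not highest in PexRAP-AKO replicate 6. Rgs13, a regulator of signalling in germinal centre B cells, had at most 2 reads in a library. Jchain, which joins secreted immunoglobulin and marks plasma cells, was highest in PexRAP-AKO replicates 5 (16.4 CPM) and 3 (15.4 CPM), with 3.74 CPM in replicate 6 and 3.45 CPM in Control replicate 8. Mzb1, a chaperone of antibody-secreting and innate-like B cells, instead had the order of the B cell genes, at 1.41 CPM (20 reads) in PexRAP-AKO replicate 6, 1.29 CPM in Control replicate 8 and at most 0.809 CPM in the other 8. Of 6 regulatory T cell genes, 3 peaked in PexRAP-AKO replicate 6 by narrower gaps, against 10.9% of all genes tested. Foxp3, their defining factor, was at 3.25 CPM in PexRAP-AKO replicate 6 and at 1.06 to 2.86 CPM elsewhere. Ikzf2 was at 31 and 18.6 to 26.1 CPM. Of the 6, 1 was lowest in that library, Il1rl1, at 5.3 CPM against 6.97 to 14 CPM elsewhere. Tnfrsf18 did not peak there (6 CPM, against 3.24 to 6.12 CPM).

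**Figure D4:**
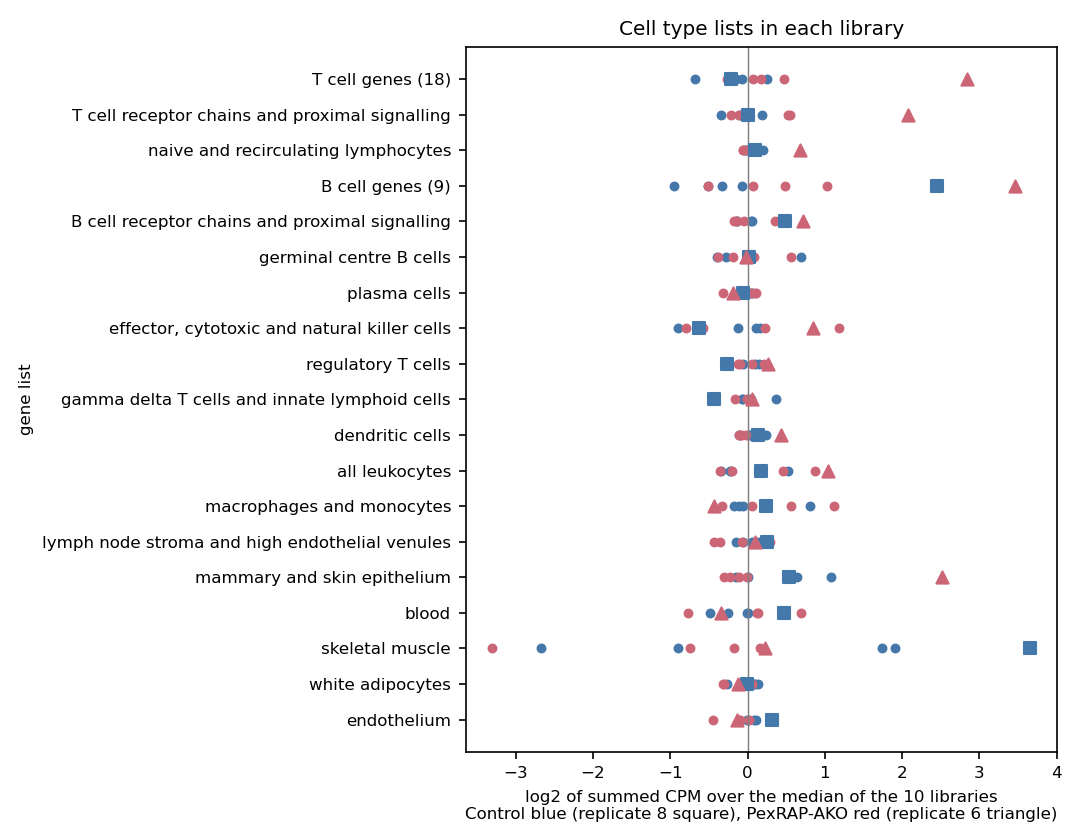
Summed CPM of each gene list except brown adipocytes in each library, as log2 of its ratio to the median of the 10 libraries (horizontal axis). Each library is 1 point, Control blue (replicate 8 square) and PexRAP-AKO red (replicate 6 triangle). The triangle lies far right for T cell, B cell and epithelial genes and at the left end for macrophages, and the square lies right for B cell genes and skeletal muscle.

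Exons of 8 of the 29 genes overlap another annotated gene in GENCODE M21 (GRCm38), and with no strand setting stated their reads cannot be separated. The overlap is with an opposite-strand gene for Cd3e, Lef1, Cd22, Pax5, Cxcr5 and Cd37, and with a microRNA gene on the same strand for Lck and Cd27. Lef1 has the longest overlap, 1208 bases with Gm43352 of 8788 bases of exon. The CD3 genes lie together on chromosome 9, Cd3g at 44969572 to 44980431, Cd3d at 44981786 to 44987339 and Cd3e at 44998740 to 45009627 (GRCm38).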

How the data were processed

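RNA-seq of inguinal fat from male mice was analysed in 10 samples, 5 per group, grouped by the genotype in the labels. The authors deposited raw read counts per gene. Per the submitters' processing notes, STAR 2.0.4b, Subread, featureCounts and edgeR were used, in an order not stated. The sources used here give no genome build, annotation or strand setting. The table's 40724 rows held 40501 identifiers, and 117 repeated identifiers with identical counts were kept once.

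Genes were filtered with filterByExpr (minimum count 10, minimum total 15), leaving 14913, and scaled by TMM. The main test was edgeR 4.0.16 (R 4.3.3), robust quasi-likelihood, adjusted over all 14913 genes at 0.05. Standard errors are the fold change over the square root of F. Log2 CPM used a prior count of 2. Alternatives were other scalings, no filter, DESeq2 1.42.0, limma 3.58.1 voom, left-out libraries (on the same genes) and a replicate block. On simulated counts for the 14913 genes of this comparison, the test recovered 54% of genes changed 1.5-fold, 78% at 2-fold and 98% at 4-fold, with 13 of 177 calls false. The changed genes were drawn at random from all 14913. Recovery among the lymphocyte genes, whose standard errors ran from 0.28 to 1.21, was not measured.

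No pair of libraries in a group agreed within sampling noise (lowest chi-square per degree of freedom 7.73). The labels do not state that samples are separate animals, so p-values may measure technical spread. The 29 genes and all lists were chosen with earlier results of these data known. Named were all 29 genes, Dhrs7b and up to 4 of the most abundant members per other list. Foxp3, Gzmb, Glycam1, Chst4, Madcam1, Ccl19, Ccl21a, Ccl22, Rgs13, Mzb1, Iglc2, Krt8 and Krt14 were named after their values were seen. Coordinates are from GENCODE M21 by identifier.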

Additional observations from a re-analysis of the deposited data

Results flagged for a closer look

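Within each group of 5, a library was taken as far from the others when its gap to the nearest one exceeded 0.710 of the group's whole range in log2 CPM. Of 100 such groups (58 of single genes and 42 of summed lists) 18 held one, where chance gives about 1 in 20. The groups share libraries and the lists share genes, so these are not separate events. PexRAP-AKO replicate 6 stood high in its group for Cd3g (3.53), Cd8b1 (3.72), Cd6 (3.02), Lck (4.5), Tcf7 (4.52), Lef1 (3.80), Ccr7 (4.34), Cd27 (3.20) and Cr2 (4.26). It also stood high in the log2 of the summed CPM of the T cell genes (7.92), naive and recirculating lymphocytes (8.64), dendritic cells (6.51) and mammary and skin epithelium (5.82). Control replicate 8 stood high for Cd79b (3.64), Blk (1.64), Cr2 (3.51) and the summed B cell genes (5.96). PexRAP-AKO replicate 2 stood low in summed skeletal muscle genes (3.28).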

How the results depend on the processing

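In all 17 alternatives 0 of the tested lymphocyte genes were called, though DESeq2 gave no adjusted p to 24 of the 25, and Dhrs7b kept its call in all 17. The count of 15 called genes over all genes was 26 with no low-count filter, 439 with DESeq2 (70.4% higher, against 93.3%), 5 without PexRAP-AKO replicate 6 and Control replicate 8, and 3 with the replicate block. It ran from 4 to 60 with 1 library left out: 60 on dropping PexRAP-AKO replicate 1, 46 on dropping Control replicate 3, 11 without PexRAP-AKO replicate 3, and 6 on dropping Control replicate 2 or 5 or PexRAP-AKO replicate 2 or 5. Dropping Control replicate 7 gave 5, and dropping Control replicate 8 gave 4. The cause was not tested. The lymphocyte median of 1.33 was 0.34 without both named libraries, 0.27 with the replicate block and 0.20 to 1.56 with 1 library left out, the lowest without PexRAP-AKO replicate 6. With limma voom it was 0.87. Signs turned without PexRAP-AKO replicate 6 for 7 genes, whose ranges over libraries left out in turn were Cd27 -0.28 to 0.45, Ms4a1 -0.77 to 2.91, Cd79a -0.84 to 2.24, Cd79b -0.57 to 2.0, Cr2 -0.46 to 1.17, Cxcr5 -0.23 to 1.5 and Ltb -0.0426 to 1.77. For Ms4a1, Cd79a, Cd79b, Cr2, Cxcr5 and Ltb the upper end came without Control replicate 8. Without both named libraries Cd27 (-0.25) and Lef1 (-0.0735) turned, and with the replicate block Cd27 (-0.25), Cd8a (-0.094), Il7r (-0.15) and Lef1 (-0.25). The block fit holds the 6 libraries numbered 2, 3 and 5, without either high library. In the pairing check the deviations of libraries sharing a number had correlations of -0.021, -0.0812 and 0.36, and no library matched its namesake best. The shared numbers are treated as names only. Of 401 values of single genes under alternatives, 388 kept their sign and side of the threshold and 13 turned sign. Depth limits genes of few reads, and recovery of 54% at 1.5-fold in simulation limits small changes. That recovery is for genes drawn at random, and recovery among the lymphocyte genes was not measured at any fold.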

Other observations

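Of all genes tested, 25 reached at least 4 times the next highest library in PexRAP-AKO replicate 6. Of these, 10 were among the 29 lymphocyte genes and 16 were on some list. The other 9 were Sidt1, Scml4, Krt19, Slc7a11, Vipr1, Grap2, Zfp831, Prkcq and Il21r, named after their values were seen. Prkcq, a kinase of T cell receptor signalling, was at 20.7 CPM there and at most 4.94 CPM elsewhere, and Grap2, a T cell adaptor, at 18.6 and at most 4.26 CPM. Il21r, the interleukin 21 receptor, was at 14.3 and at most 3.41 CPM. Krt19, a keratin of glandular epithelium, was at 20.4 and at most 3.99 CPM.

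PexRAP-AKO replicate 3 stood apart in another immune class. Gzma and Gzmb, granule proteases of killer cells, were at 10.7 and 6.01 CPM in it, while in PexRAP-AKO replicate 6 they were at 1.91 and 0.565 CPM. Macrophage and monocyte genes summed highest in PexRAP-AKO replicate 3 as well, at 2530 CPM. Ccl22, a chemokine of mature dendritic cells, was instead at 11.4 CPM in PexRAP-AKO replicate 6 and at 0.163 to 1.35 CPM elsewhere.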
